A study of Homo sapiens with 15 samples.

Results

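The genes described here are the HMGA, LIN28B and IGF2BP oncofetal genes, a set of 6 that are active in the embryo and are often switched on again in tumours. They were taken by symbol from the deposited count table, and 5 of the 6 were found there among 15510 genes. LIN28B, an RNA-binding protein that blocks maturation of the let-7 microRNAs, was not analysed here. Counts of poly(A) RNA were measured in 15 libraries from 5 human cell lines, 3 per line, each replicate from its own freshly thawed vial. In RasV12 the label names an active H-RAS, in MekDD an active form of MEK and in AKTmyr an AKT anchored to the membrane, each on top of hTERT, p53DD (a dominant negative p53 fragment), cyclin D1 and CDK4R24C (a CDK4 mutant). T53D4 is labelled with hTERT, p53DD, cyclin D1 and CDK4R24C and no oncogene. ARPE19, an established line of retinal pigment epithelium, is the untransfected parent of all of them. There is 1 line per construct set, so the tests compare these lines and do not cover independently made lines. Whether a line is a clone or a pool is not given in the sources used here.

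HMGA1 and HMGA2 are small chromatin proteins that bind AT-rich DNA and bend it, and both are known for high levels in embryonic tissue and in many carcinomas. IGF2BP1, IGF2BP2 and IGF2BP3 bind messenger RNAs, IGF2 and MYC among them, and are known to protect many of them from decay. The let-7 microRNAs silence HMGA2 and IGF2BP genes in adult cells, and LIN28B, itself a let-7 target, works against them.

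Because let-7 ties these genes together, its sequence and the sites it can pair with are shown first. All 9 mature human let-7 and miR-98 names in RefSeq (GRCh38.p14) have the same seed, and let-7a-5p is given with that seed, bases 2 to 8, in capitals.
let-7a-5p: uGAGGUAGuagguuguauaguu
The matching heptamer CTACCTC was sought in the 3′ untranslated region of each gene's principal GENCODE 29 transcript. It occurred 4 times in HMGA2, 4 times in IGF2BP1, 4 times in LIN28B and 1 time each in HMGA1, IGF2BP2 and IGF2BP3. Of 19669 genes, 8.28% had at least 1 such match and 0.061% had at least 4. Among the 2851 genes with a 3′ untranslated region at least as long as that of HMGA2, these shares were 25.7% and 0.316%. With the length of HMGA1, IGF2BP2 or IGF2BP3 as the lower limit, 17.3%, 19.3% and 21.1% of genes had at least 1 match. The capitals below mark the heptamer, with the following A where there is one, in the sense strand of the transcript on hg38.
HMGA2 site 1, chr12:65963301-65963325: aacgttcgatttCTACCTCAgcagc
HMGA2 site 2, chr12:65964536-65964560: cactactcaataCTACCTCtgaatg
HMGA2 site 3, chr12:65964948-65964972: acttgcaaagacCTACCTCcagact
HMGA2 site 4, chr12:65965801-65965825: caaaacacactaCTACCTCttaagt
HMGA1, chr6:34245832-34245856: tctgttcacaaaCTACCTCtggaca
IGF2BP2, chr3:185644215-185644239, minus strand: acacagaagaagCTACCTCAggtgt
IGF2BP3, chr7:23311790-23311814, minus strand: atttttactcaaCTACCTCAggtat
Of 7 annotated HMGA2 isoforms with a 3′ untranslated region, 1 held the matches. Gene-level counts do not separate isoforms, and let-7 itself was not measured in these poly(A) libraries. A match is a run of letters and not a measured binding site.

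Each library held between 20.63 and 46.55 M gene reads, and the replicate 3 libraries were the shallowest, at 20.63 to 24.05 M. Levels are in CPM, counts scaled to library size after trimmed-mean (TMM) scaling, with the SD over 3 libraries. In such bulk samples, fewer expressing cells and less RNA per cell cannot be told apart. The oncogene constructs matched their labels, with 310 ± 30.4 CPM of HRASV12 in RasV12 against 20.8 ± 3.69 in T53D4. In contrast, cyclin D1 and CDK4 construct reads went against the label of T53D4, at 146 ± 32.1 and 92.2 ± 11.8 CPM in T53D4 against 193 ± 41.6 and 70.7 ± 12 in ARPE19. In RasV12 they held 2350 ± 121 and 2380 ± 23.3 CPM, in AKTmyr 858 ± 132 and 1010 ± 90.1, and in MekDD 269 ± 57.6 and 142 ± 13.7. T53D4 and MekDD are therefore short below for the libraries labelled so. The hTERT and p53DD constructs went with the label of T53D4, at 879 ± 147 and 70.7 ± 20.1 CPM. ARPE19 had 0.176 ± 0.0538 and 0.00976 ± 0.0169 CPM of them. RasV12 had 1240 ± 66.4 and 111 ± 12.4, MekDD 454 ± 58.2 and 32.3 ± 8.36, and AKTmyr 633 ± 175 and 58.4 ± 20.1. RasV12 and AKTmyr, and to a smaller extent MekDD, differ from T53D4 in the cyclin D1 and CDK4 constructs as well as in the oncogene. Levels of hTERT and p53DD constructs vary between these lines too, and the shares of each in a result cannot be told apart. Summed retinal pigment epithelium markers (15 of 17 analysed) were 976 to 1190 CPM in RasV12, 1380 to 1650 in MekDD, 1510 to 2200 in AKTmyr, 1800 to 2140 in T53D4 and 2620 to 2760 in ARPE19. The keratin genes KRT8 (579 to 1740 CPM) and KRT18 (167 to 718 CPM) carry most of these sums. Over the 14 tested markers the median log2 difference from ARPE19 was -0.56 in RasV12, 0.27 in MekDD, 0.04 in AKTmyr and 0.14 in T53D4. In MekDD, AKTmyr and T53D4 the median and the sum therefore differ in direction. RPE65, a defining enzyme of that tissue, was at most 0.154 CPM and at 0 in 8 libraries. Of 12 analysed markers of other cell types, PTPRC and PECAM1, which mark blood and endothelial cells, were at most 0.208 and 0.169 CPM, while ITGAM and VWF, of the same cell types, reached 2.81 and 0.732 CPM. ITGAM averaged 0.015 CPM in RasV12, 0.0574 in MekDD, 0.629 in AKTmyr, 0.838 in T53D4 and 1.44 in ARPE19. The sum of those 12 was 290 to 351 CPM in RasV12, 139 to 200 in MekDD, 123 to 167 in AKTmyr, 93.6 to 189 in T53D4 and 163 to 191 in ARPE19, most of it from the lysosomal gene CD68 (84 to 344 CPM). The part of these markers in the results below was not tested.

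HMGA1, HMGA2 and IGF2BP3 were all higher in RasV12 than in T53D4, and only IGF2BP3 was higher in AKTmyr, where both HMGA genes were lower. IGF2BP2 passed the test in none of the 10 comparisons, and IGF2BP1 was near the detection limit everywhere. In MekDD, HMGA2 and IGF2BP3 were higher than in T53D4 and HMGA1 did not pass. No member passed the test between T53D4 and ARPE19.

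**Figure D1:**
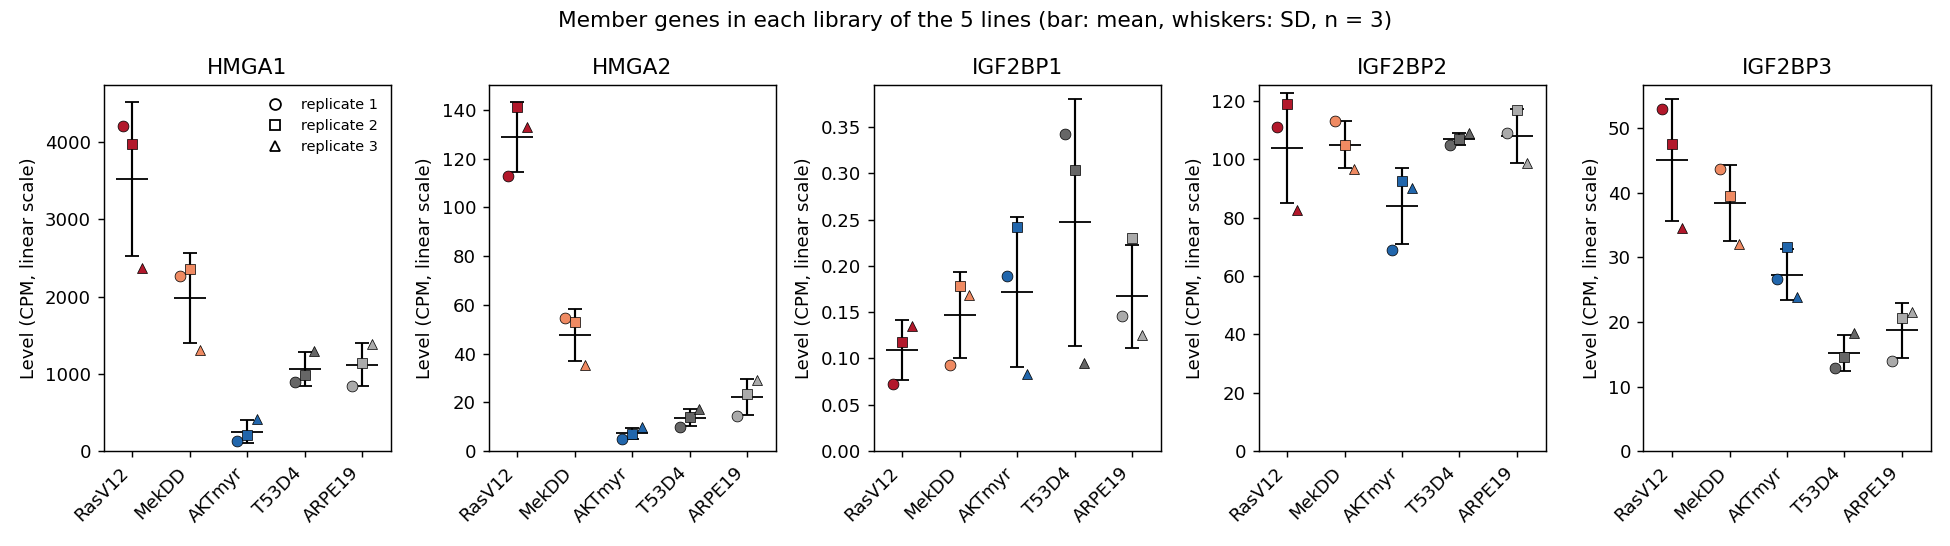
Level of each member gene (CPM, linear axis from 0) in every library of the 5 lines, with the mean as a bar and the SD as whiskers (n = 3). HMGA1 and HMGA2 are highest in RasV12 and lowest in AKTmyr, at 3520 and 251 CPM and at 129 and 7.26 CPM on average, whereas IGF2BP2 stays between 68.9 and 119 CPM in all 15 libraries.

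HMGA2 (ENSG00000149948, chr12:65824131-65966295, plus strand, hg38) had 113, 141 and 133 CPM in RasV12 replicates 1, 2 and 3, against 9.93, 14 and 17.1 CPM in T53D4. MekDD had 54.7, 53 and 35.5 CPM, AKTmyr 5.11, 6.89 and 9.79 CPM, and ARPE19 14.4, 23.6 and 29 CPM. The RasV12 libraries lay above every other library and the MekDD libraries above those of AKTmyr, T53D4 and ARPE19, with no overlap, while T53D4 and ARPE19 overlapped. HMGA2 rose by log2 3.24 in RasV12 over T53D4 (SE 0.30, 95% interval 2.60 to 3.89), with an edgeR adjusted p = 5.76e-06, here and below from the quasi-likelihood test of edgeR, adjusted by Benjamini-Hochberg over 13599 genes and called under 0.05. In MekDD over T53D4 it rose by log2 1.81 (SE 0.29, edgeR adjusted p = 0.00166). RasV12 itself exceeded MekDD by log2 1.44 (SE 0.28, edgeR adjusted p = 0.00329), and by ratios of 2.07, 2.66 and 3.75 within replicates 1, 2 and 3.

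In AKTmyr, HMGA2 fell by 0.92 on the log2 scale relative to T53D4 (SE 0.29, edgeR adjusted p = 0.0383). The ratios of AKTmyr to T53D4 were alike in the 3 replicate numbers, at 0.514, 0.493 and 0.573. The call was lost without AKTmyr replicate 1 or 2 (edgeR adjusted p = 0.155 and 0.0963), without T53D4 replicate 2 or 3 (0.0868 and 0.139), and with only these lines in the fit (0.0903). With the replicate number added as a factor the call was kept (edgeR adjusted p = 0.0135). Against ARPE19 the fall was 1.63 (SE 0.29, edgeR adjusted p = 0.00217), and it passed without any single library. T53D4 against ARPE19 had a log2 difference of -0.71 (95% interval -1.32 to -0.10, edgeR adjusted p = 0.397), which did not pass. The ratios of T53D4 to ARPE19 were 0.689, 0.593 and 0.589 within replicates 1, 2 and 3. With the replicate number as a factor this difference did not pass either (edgeR adjusted p = 0.148). MekDD over ARPE19 had log2 1.10 (SE 0.28, edgeR adjusted p = 0.024), a call lost without MekDD replicate 1 or 2 (0.0846 and 0.087) or ARPE19 replicate 1 or 2 (0.0966 and 0.0679). Against ARPE19, RasV12 was higher by log2 2.53 (SE 0.29, edgeR adjusted p = 3.19e-05).

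HMGA1 (ENSG00000137309, chr6:34236873-34246231, plus strand) is the most abundant member in CPM. It had 4200, 3970 and 2370 CPM in RasV12 against 891, 981 and 1300 CPM in T53D4. MekDD had 2270, 2360 and 1310 CPM, AKTmyr 135, 203 and 416 CPM, and ARPE19 837, 1140 and 1390 CPM. The RasV12 libraries were above all others and the AKTmyr libraries below all others. MekDD replicate 3 stood just above T53D4 replicate 3 and below ARPE19 replicate 3. HMGA1 rose by log2 1.73 in RasV12 over T53D4 (SE 0.38, edgeR adjusted p = 0.00409) and fell by 2.07 in AKTmyr (SE 0.38, edgeR adjusted p = 0.00267). The MekDD difference from T53D4, log2 0.90 (95% interval 0.11 to 1.70), did not pass (edgeR adjusted p = 0.212), and that of RasV12 from MekDD, log2 0.83 (95% interval 0.04 to 1.62), did not pass either (edgeR adjusted p = 0.156).

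The MekDD value of HMGA1 depended on replicate 3. Its ratio to T53D4 was 2.55 and 2.40 in replicates 1 and 2 and 1.00 in replicate 3. With any single MekDD or T53D4 library left out the difference did not pass (log2 0.76 to 1.13, edgeR adjusted p = 0.138 to 0.459), and without MekDD replicate 3 it was log2 1.13 with an edgeR adjusted p = 0.138. Without the replicate 3 libraries of all lines, an alternative chosen after seeing these ratios and so no independent test, the difference was log2 1.30 with an edgeR adjusted p = 0.0182, and against ARPE19 it was log2 1.21 with an edgeR adjusted p = 0.0153. Without replicate 1 or 2 of all lines the difference from T53D4 was log2 0.69 and 0.71, with an edgeR adjusted p = 0.479 and 0.852. For the 3 members called in any comparison, replicate 3 was also the number in which the 5 lines differed least. The highest line exceeded the lowest 31, 19.6 and 5.71 times for HMGA1 in replicates 1, 2 and 3, 22.2, 20.5 and 13.6 times for HMGA2, and 4.13, 3.26 and 1.89 times for IGF2BP3. IGF2BP2 went otherwise, with 1.64 times in replicate 1, 1.32 times in replicate 3 and the lowest ratio in replicate 2. The replicate 3 libraries were also the shallowest, and the part of depth in this was not tested. GENCODE 29 lists 8 pseudogenes of HMGA1, so some of its reads could also match elsewhere in the genome, and its level is uncertain to that extent.

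**Figure D2:**
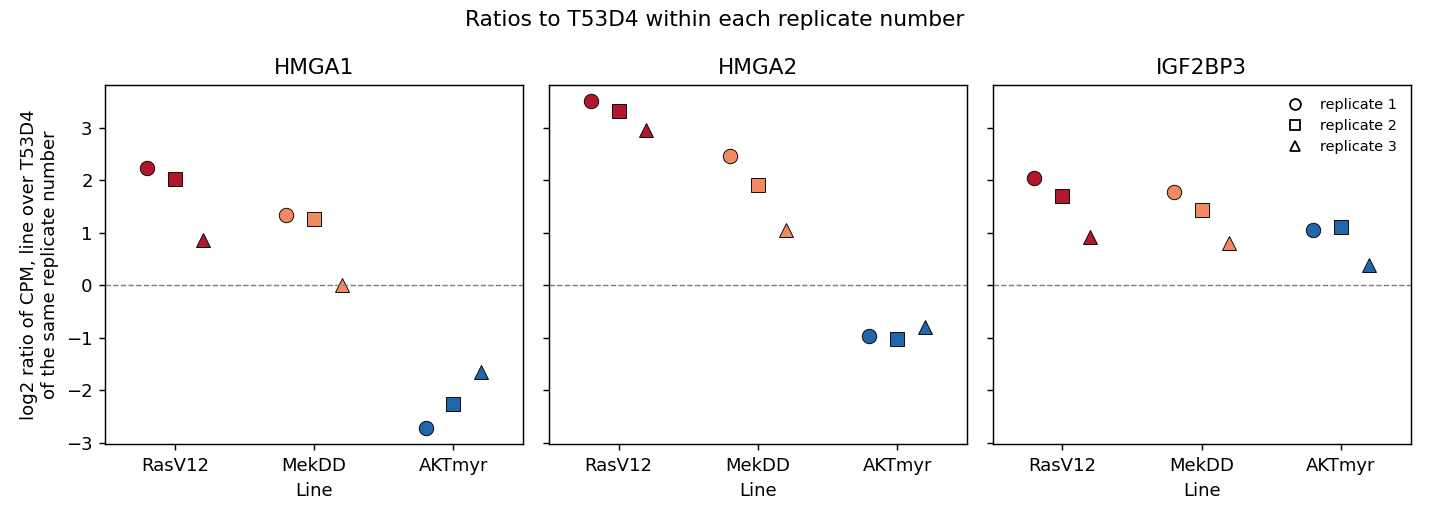
Log2 ratio of the CPM in RasV12, MekDD and AKTmyr to that in T53D4 of the same replicate number, for HMGA1, HMGA2 and IGF2BP3, with 1 point per replicate number and a dashed line at no difference. Replicate 3 lies nearest to the dashed line for all 3 genes in all 3 lines, and HMGA1 in MekDD is at 1.35, 1.26 and 0.01.

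The order of HMGA1 levels was RasV12, MekDD, ARPE19, T53D4, AKTmyr. Among neighbours in that order, T53D4 and AKTmyr differed by the test and the other 3 pairs did not (edgeR adjusted p = 0.156, 0.179 and 0.968). HMGA2 had the same order of means, and there T53D4 and ARPE19 was the only neighbouring pair that did not pass (edgeR adjusted p = 0.397). Over the 15 libraries the log2 CPM of HMGA1 and HMGA2 had a Pearson r of 0.92, as a description over libraries that share lines and replicate numbers. Per length of exon, HMGA1 made up 99.4 ± 0.223% of the summed HMGA RPKM in RasV12 and 99.8 ± 0.0238% in T53D4 (SD, n = 3). The union of HMGA2 exons is 15.4 kb, which lowers its RPKM.

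IGF2BP3 (ENSG00000136231, chr7:23310209-23470491, minus strand) had 53, 47.6 and 34.6 CPM in RasV12, against 12.8, 14.6 and 18.3 CPM in T53D4. MekDD had 43.7, 39.5 and 32.1 CPM, AKTmyr 26.6, 31.6 and 23.8 CPM, and ARPE19 13.9, 20.6 and 21.6 CPM. All libraries of the 3 oncogene lines were above all libraries of T53D4 and ARPE19. IGF2BP3 rose over T53D4 by log2 1.57 in RasV12 (SE 0.21, edgeR adjusted p = 0.000123), 1.34 in MekDD (SE 0.21, edgeR adjusted p = 0.00158) and 0.85 in AKTmyr (SE 0.21, edgeR adjusted p = 0.0131). The AKTmyr call was lost without T53D4 replicate 1 (edgeR adjusted p = 0.0522), and the AKTmyr difference from ARPE19, log2 0.55 (95% interval 0.10 to 1.00), did not pass (edgeR adjusted p = 0.0878). RasV12 and MekDD exceeded ARPE19 by log2 1.27 and 1.04 (edgeR adjusted p = 0.000535 and 0.00659).

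Between the oncogene lines, 1 of the 3 IGF2BP3 differences passed. RasV12 over MekDD had log2 0.23 (95% interval -0.21 to 0.67, edgeR adjusted p = 0.516), and RasV12 over AKTmyr log2 0.72 (SE 0.21, edgeR adjusted p = 0.0133), a call lost without RasV12 replicate 1 (edgeR adjusted p = 0.0553). MekDD over AKTmyr had log2 0.49 (95% interval 0.05 to 0.94, edgeR adjusted p = 0.0957). Its order of means was RasV12, MekDD, AKTmyr, ARPE19, T53D4, and no neighbouring pair in it passed the test. Exons of IGF2BP3 overlap those of MALSU1 on the other strand by 1521 bases. Whether the counting used strand is not given in the sources used here, so reads in that stretch may not be told apart. MALSU1, a mitochondrial ribosome factor, had 47 ± 7.46 CPM in RasV12 and 50.7 ± 2.19 CPM in T53D4 and was called in none of the 10 comparisons, with log2 differences between -0.26 and 0.15.

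IGF2BP2 (ENSG00000073792, chr3:185643739-185825056, minus strand), the family member that adult tissues keep, had 111, 119 and 82.7 CPM in RasV12 against 105, 107 and 109 CPM in T53D4. MekDD had 113, 105 and 96.6 CPM, AKTmyr 68.9, 92.5 and 90.3 CPM, and ARPE19 109, 117 and 98.6 CPM. The RasV12, MekDD, T53D4 and ARPE19 libraries overlapped, and the AKTmyr libraries lay below those of MekDD, T53D4 and ARPE19. The MekDD difference from AKTmyr, log2 0.32 (95% interval 0.01 to 0.63), did not pass (edgeR adjusted p = 0.117). The log2 difference from T53D4 was -0.05 in RasV12 (95% interval -0.36 to 0.27, edgeR adjusted p = 0.865), -0.03 in MekDD (-0.34 to 0.28, edgeR adjusted p = 0.953) and -0.36 in AKTmyr (-0.67 to -0.05, edgeR adjusted p = 0.0984). RasV12 over AKTmyr, log2 0.31 (edgeR adjusted p = 0.103), passed without RasV12 replicate 3 (log2 0.45, edgeR adjusted p = 0.0204).

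IGF2BP1 (ENSG00000159217, chr17:48997385-49056145, plus strand) had 2, 5 and 3 reads in RasV12, 3, 7 and 4 in MekDD, 7, 11 and 2 in AKTmyr, 10, 14 and 2 in T53D4 and 5, 9 and 3 in ARPE19. Over the 3 libraries of a line this was 0.109 CPM in RasV12 (95% exact Poisson interval 0.0522 to 0.2) and 0.27 CPM in T53D4 (0.176 to 0.396), intervals that cover counting error only. It did not pass the filter on low counts and was not tested in the main fit. With no such filter its log2 differences ran from -1.21 to 0.59 with a lowest edgeR adjusted p = 0.141, so a difference was not detectable at this depth. Of its 2 annotated transcripts compared, 1 holds the let-7 heptamers, and the gene as a whole had at most 14 reads in any library.

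Per length of exon, IGF2BP2 and IGF2BP3 made up nearly all of the summed IGF2BP level. IGF2BP3 took 19.3 ± 1.47% of the summed IGF2BP RPKM in RasV12, 16.8 ± 1.13% in MekDD, 15.4 ± 2.48% in AKTmyr, 7.27 ± 1.1% in T53D4 and 8.76 ± 2.13% in ARPE19 (SD, n = 3 each). IGF2BP2 took 80.6 ± 1.46% in RasV12 and 92.6 ± 1.04% in T53D4. The shares of IGF2BP3 in the 3 oncogene lines, 12.7% at the lowest, did not overlap those in T53D4 and ARPE19, 10.8% at the highest. The shares were not tested apart from the genes themselves.

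**Figure D3:**
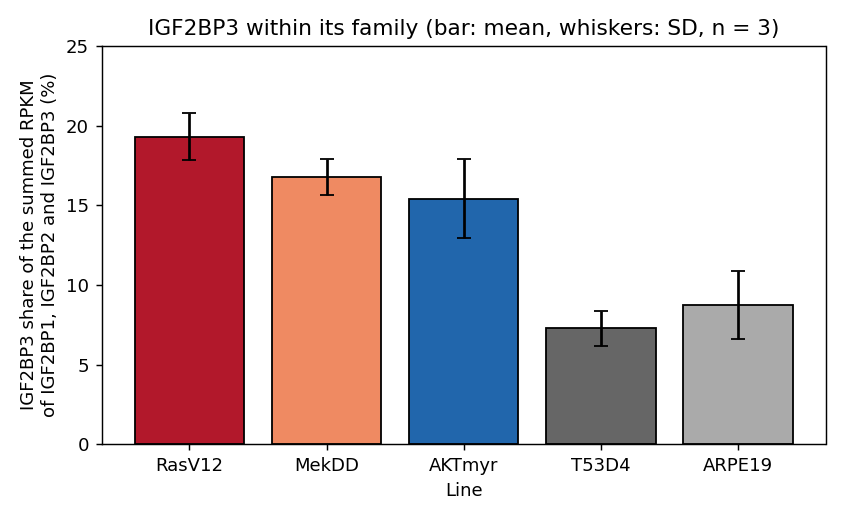
Share of IGF2BP3 in the summed RPKM of IGF2BP1, IGF2BP2 and IGF2BP3 (%), by line, as mean and SD (n = 3). The bars of RasV12, MekDD and AKTmyr stand at 19.3, 16.8 and 15.4%, above those of T53D4 and ARPE19 at 7.27 and 8.76%.

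Counted over the 4 tested members, 3 were higher in RasV12 than in T53D4 and 0 lower, where 10.8% of all genes were called higher and 13.6% lower. MekDD against T53D4 gave 2 higher and 0 lower, beside 2.27% and 2.83% of all genes. The replicate block, a fit that adds the replicate number as a factor, called 1589 genes in that comparison, against 694 without it. AKTmyr against T53D4 gave 1 higher and 2 lower, beside 9.91% and 10.2% of all genes (4738 genes with the replicate block, against 2738). RasV12 over AKTmyr gave 3 higher of 4 (19.6% of all genes called higher, 20.7% lower), MekDD over AKTmyr 2 (12.7% and 13.5%, and 5481 genes with the block against 3560) and RasV12 over MekDD 1 (7.17% and 8.33%, and 3588 with the block against 2108), each with 0 lower. Both HMGA genes were called higher in RasV12 and in MekDD than in AKTmyr. HMGA1 differed by log2 3.81 (SE 0.41, edgeR adjusted p = 1.3e-05) and 2.98 (SE 0.40, edgeR adjusted p = 0.000163), and HMGA2 by log2 4.16 (SE 0.32, edgeR adjusted p = 7.77e-07) and 2.73 (SE 0.30, edgeR adjusted p = 3.31e-05).

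Against ARPE19, RasV12 gave 3 higher (14.4% of all genes called higher, 16.2% lower), MekDD 2 (4.61% and 6.27%, and 3064 genes with the block against 1479) and AKTmyr 0, with 2 lower in AKTmyr (7.98% and 8.86%, and 4027 with the block against 2290). HMGA1 rose by log2 1.65 in RasV12 over ARPE19 (SE 0.38, edgeR adjusted p = 0.00464) and fell by 2.16 in AKTmyr (SE 0.38, edgeR adjusted p = 0.0021). The comparisons with T53D4 share the same T53D4 libraries, and likewise those with ARPE19. T53D4 against ARPE19 gave 0 calls among the members by edgeR and 0 by DESeq2, with 1 at an unadjusted p under 0.05 (HMGA2). There 0.0368% of all genes were called higher and 0.118% lower, 21 genes in all, and 232 with the replicate block.

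**Figure D4:**
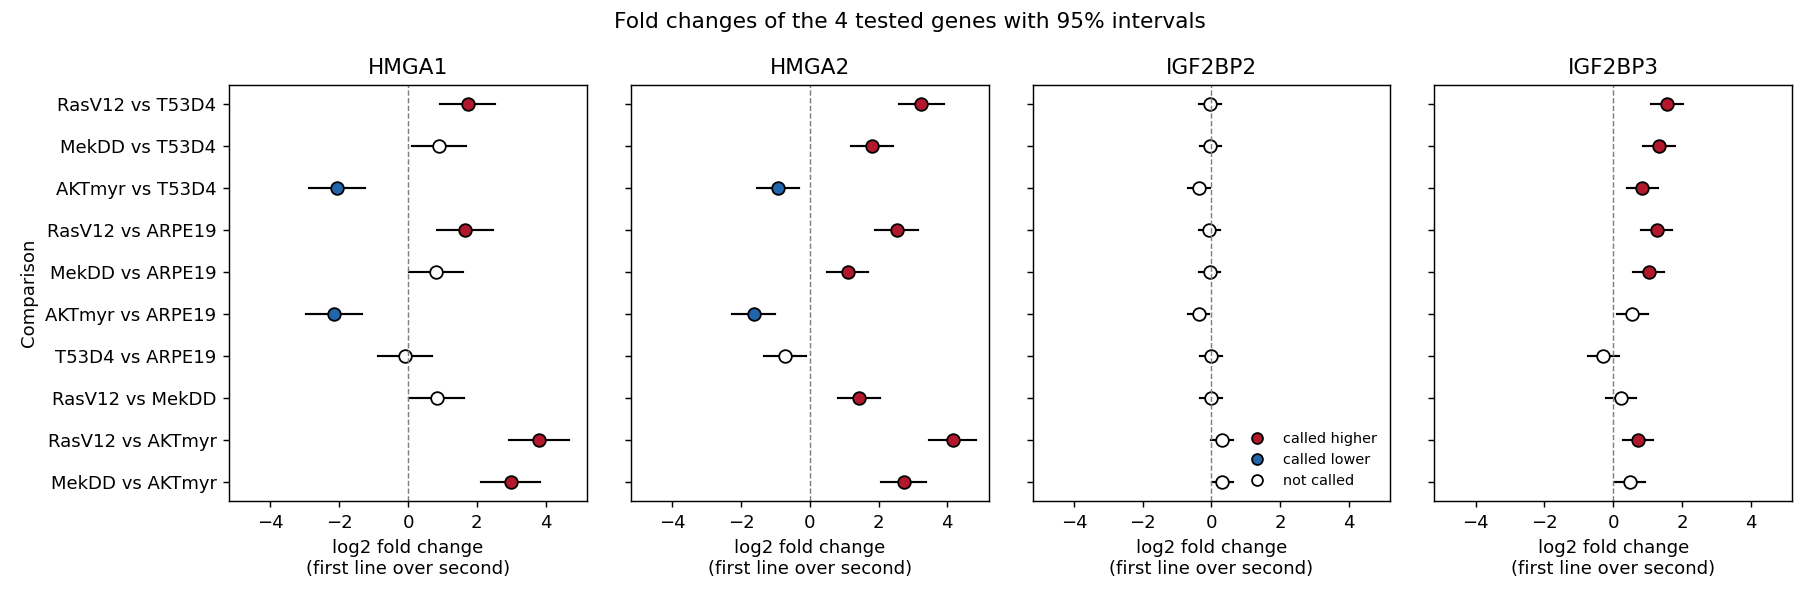
Log2 fold change of the 4 tested members in the 10 comparisons, first line over second, with 95% intervals. Filled points mark genes that passed the test, red for higher and blue for lower. HMGA1 and HMGA2 run from -2.16 and -1.63 in AKTmyr over ARPE19 to 3.81 and 4.16 in RasV12 over AKTmyr, while all IGF2BP2 points are open.

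As background for the gene lists below, RasV12 had 10.8% of all genes called higher and 13.6% lower against T53D4. MekDD had 2.27% higher and 2.83% lower, and AKTmyr 9.91% higher and 10.2% lower. Of 17 tested genes of let-7 processing and silencing, 1 was higher and 0 lower in RasV12 than in T53D4, with a median log2 of -0.02 against 0.01 over all genes. The replicate block gave 1 higher and 2 lower. The gene called higher by the fit without the block was TUT7, a uridylyltransferase that can tail let-7 precursors, with 57.9, 56.3 and 65.5 CPM in RasV12 and 23.5, 30.5 and 25.9 CPM in T53D4 (log2 1.17, SE 0.16, edgeR adjusted p = 0.000146). In MekDD 0 of the 17 passed by edgeR, with 2 at an unadjusted p under 0.05 and 1 higher by DESeq2. In AKTmyr 1 was higher and 5 were lower (median -0.17), among them DGCR8, the partner of Drosha in cutting microRNA precursors, at 26.6 ± 8.74 CPM in AKTmyr against 43.2 ± 6.58 in T53D4 (log2 -0.70, edgeR adjusted p = 0.0355). HNRNPA1 and KHSRP, RNA-binding proteins that act on the let-7 precursor, had log2 -0.59 and -0.57 (edgeR adjusted p = 0.0132 and 0.0398).

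In the fit without the block, other known let-7 targets had calls in RasV12 near the share over all genes. Of 25 tested, 3 were higher and 4 lower in RasV12 than in T53D4 (median 0.03), and with the replicate block 7 and 5. The block called more of all genes there too, 4866 against 3313 without it. CDK6, a cell cycle kinase, fell to 28.8, 22.7 and 20.8 CPM in RasV12 against 127, 91.4 and 77.5 CPM in T53D4 (log2 -2.03, SE 0.31, edgeR adjusted p = 0.000291). INSR, the insulin receptor, had 16.9 ± 2.63 CPM in RasV12 and 42.5 ± 3.73 in T53D4 (log2 -1.33, edgeR adjusted p = 0.000123). ARID3A, a DNA-binding protein, had 6.97 ± 0.66 and 2.79 ± 0.607 CPM in RasV12 and T53D4 (log2 1.32, edgeR adjusted p = 0.00123). In MekDD 0 were higher and 1 lower, NR6A1, a nuclear receptor (log2 -1.58, edgeR adjusted p = 0.0258), and with the block 3 and 2. In AKTmyr 0 were higher and 5 lower, with 8 lower under the block, led by MYC, CDC25A and INSR. MYC had 86 ± 11.9 CPM in AKTmyr and 212 ± 21.9 in T53D4 (log2 -1.30, edgeR adjusted p = 0.000288), and CDC25A, a cell cycle phosphatase, 14.7 ± 4.5 and 26.4 ± 3.96 (log2 -0.85, edgeR adjusted p = 0.0216).

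Of 11 tested messenger RNAs known to be bound by IGF2BP proteins, 2 were higher and 3 lower in RasV12 than in T53D4. CD44, a hyaluronan receptor, had 1170, 1130 and 1430 CPM in RasV12 against 410, 320 and 403 CPM in T53D4 (log2 1.72, SE 0.19, edgeR adjusted p = 2.02e-05). MYC, a transcription factor, had 132 ± 21.5 CPM against 212 ± 21.9 (log2 -0.68, edgeR adjusted p = 0.00887), and ACTB, beta-actin, fell by 0.72 (edgeR adjusted p = 0.0156). In MekDD, CD44 was the 1 gene called, at log2 0.79 (edgeR adjusted p = 0.0227). In AKTmyr 1 was higher and 3 were lower, among the lower ones LEF1, a transcription factor of the Wnt pathway, at log2 -1.52 (edgeR adjusted p = 0.00608).

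The m6A list holds writers, erasers and other readers of the RNA mark that IGF2BP proteins recognise. Of its 20 tested genes, 0 passed by edgeR in RasV12 and 0 in MekDD against T53D4, with 2 and 0 at an unadjusted p under 0.05 and 1 and 0 by DESeq2. In AKTmyr 2 were higher, the demethylase FTO (log2 0.52, edgeR adjusted p = 0.00196) and the reader FMR1 (log2 0.39, edgeR adjusted p = 0.0253), and with the block 3 were higher and 3 lower. The other high mobility group genes, 8 tested, gave 0 calls by edgeR in RasV12, MekDD and AKTmyr against T53D4. DESeq2 gave 0 as well, and unadjusted p-values under 0.05 numbered 0, 0 and 2. Under the replicate block, 1 was higher and 2 were lower in AKTmyr, and 0 were called in RasV12 and MekDD. Among other oncofetal and pluripotency genes, 6 of the 15 listed passed the filter. TPBG, the trophoblast glycoprotein 5T4, had 74.6, 56.4 and 56 CPM in RasV12 against 21.1, 16.1 and 14.9 CPM in T53D4 (log2 1.84, SE 0.18, edgeR adjusted p = 7.11e-06). PEG10, an imprinted gene, had log2 -0.81 in the same comparison (edgeR adjusted p = 0.0295). GPC3, an oncofetal surface proteoglycan, had 0 reads in RasV12 and 125 reads in T53D4, and was at least 39.8-fold lower against a floor of 3 reads over the line. It was called lower than in T53D4 in MekDD and AKTmyr as well (edgeR adjusted p = 6.13e-05 and 0.000544), at 0, 0.0254 and 0 CPM in MekDD and 0.135, 0.198 and 0.0833 CPM in AKTmyr, against 1.51, 1.11 and 1.43 CPM in T53D4.

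The genes with the most similar pattern to each member were found by Pearson r of log2 CPM over the 15 libraries, among 11131 genes, as a description with no test. For HMGA1 they were MFSD2B (r = 0.996), a sphingosine phosphate exporter, ETV4 (0.973), an ETS transcription factor, and ADORA2B (0.97), an adenosine receptor. ETV4 averaged 23.9 CPM in RasV12, 11 in MekDD, 0.933 in AKTmyr, 5.04 in T53D4 and 4.01 in ARPE19. For HMGA2 they were MCFD2 (0.995), a cargo adaptor of the secretory pathway, CORO2B (0.99), a coronin, and RASSF8 (0.988). For IGF2BP3 they were PLXNA4 (0.952), a semaphorin receptor, SPOPL (0.946) and SPATS2 (0.93). PLXNA4 averaged 12.1 CPM in RasV12, 8.06 in MekDD, 0.658 in AKTmyr, 0.131 in T53D4 and 0.246 in ARPE19. IGF2BP2 had lower values, with RSL1D1 (0.895), NAT10 (0.878) and MRPS2 (0.869), genes of ribosome assembly and the mitochondrial ribosome. Among the members themselves r was 0.68 for HMGA2 with IGF2BP3 and 0.42 for HMGA1 with IGF2BP3. For IGF2BP2 it was 0.65 with HMGA1, 0.39 with HMGA2 and -0.02 with IGF2BP3.

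**Figure D5:**
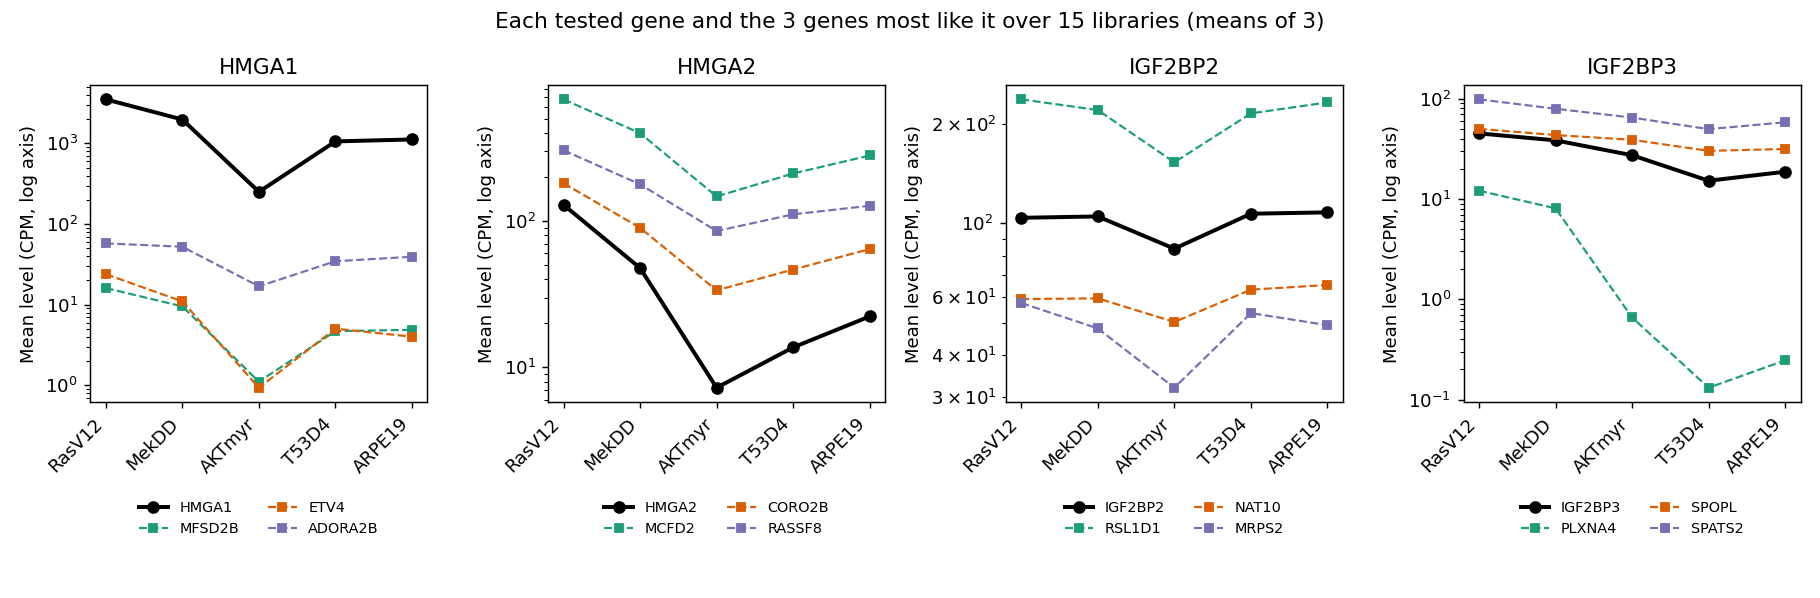
Mean level (CPM, log axis) of each tested member, in black, and of the 3 genes most like it over 15 libraries, in the 5 lines (means of 3 libraries). The HMGA1 and HMGA2 panels dip together at AKTmyr, and PLXNA4 spans 12.1 to 0.131 CPM where IGF2BP3 spans 45.1 to 15.2 CPM.

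Genes within 500 kb of each member's start were counted in RasV12 over T53D4, where 10.8% of all genes were called higher and 13.6% lower. Of the 3 tested neighbours of HMGA2, 0 passed by edgeR, with a median log2 of 0.21. Of the 6 neighbours of HMGA1, 1 was higher and 1 lower (median -0.10), and of the 10 of IGF2BP3, 1 was higher and 0 lower (median -0.08). Of the 8 of IGF2BP2, 2 were higher and 1 lower (median 0.21), and of the 7 of IGF2BP1, 0 were higher and 1 lower (median -0.09). With so few neighbours these counts do not set them apart from all genes.

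The promoters of HMGA1 and IGF2BP3 are shown because both genes rose in RasV12 and moved in opposite directions in AKTmyr. The windows run from 250 bases before to 50 after the RefSeq start on GRCh38.p14, and capitals mark the motifs found on either strand.
HMGA1, chr6:34236623-34236922, plus strand: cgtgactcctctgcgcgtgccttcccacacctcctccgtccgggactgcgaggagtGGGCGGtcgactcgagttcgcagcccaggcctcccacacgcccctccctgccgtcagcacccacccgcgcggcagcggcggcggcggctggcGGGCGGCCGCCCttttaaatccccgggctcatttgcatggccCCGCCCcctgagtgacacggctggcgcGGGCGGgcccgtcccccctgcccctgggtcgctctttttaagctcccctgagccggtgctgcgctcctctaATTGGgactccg
IGF2BP3, chr7:23470442-23470741, minus strand: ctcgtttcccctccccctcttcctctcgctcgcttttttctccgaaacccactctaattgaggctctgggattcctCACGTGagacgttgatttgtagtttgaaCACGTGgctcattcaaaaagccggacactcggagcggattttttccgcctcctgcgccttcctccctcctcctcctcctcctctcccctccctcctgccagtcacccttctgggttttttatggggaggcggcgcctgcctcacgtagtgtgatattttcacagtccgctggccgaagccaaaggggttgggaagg
On both strands, the AP-1 motif was sought as TGANTCA, the cyclic AMP element (CRE) as TGACGTCA and the ETS motif as CCGGAAGT. The E-box was sought as CACGTG, and the GC box as GGGCGG. The CCAAT box was sought by the letters of its name, and the TATA box as TATAAA. No 2 of these motifs overlap in either window. The HMGA1 window held 5 GC boxes and 1 CCAAT box, which 45% and 34.6% of 35116 promoters hold at least 1 of. The IGF2BP3 window held 2 E-boxes, a motif in 7.26% of promoters, and none of the other letters sought. AP-1, CRE and ETS letters were in neither window, and 7.71%, 1.85% and 4.14% of promoters hold them. The GC content was 72% in the HMGA1 window and 56.3% in that of IGF2BP3. RefSeq has a second HMGA1 window (chr6:34238541-34238840, plus strand, not printed), with a GC content of 53%, 1 CCAAT box and no GC box. Which start these cells use was not measured here. For IGF2BP2, not printed, the window chr3:185824993-185825292 held 7 GC boxes and no other motif sought. Its window chr3:185821093-185821392 held 1 AP-1 match, 1 CCAAT box and 1 TATA box. HMGA2 and IGF2BP1 promoters are named only.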

How the data were processed

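The authors deposited raw read counts per gene, and those counts were the unit tested. The tools named are HISAT2 2.1.0, fastp 0.20.0, DESeq2 1.28.1, SAMtools 1.9, featureCounts 1.6.4 and deepTools 3.2.0, with build hg38 and no role or order, per the submitters' processing notes. The libraries were made with a directional kit, per the labels, and whether counting used strand is not given in the sources used here. Deposited normalised and log tables were not used.

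Of 15517 rows, 7 were construct sequences and were left out of library sizes and fits. Members were matched by symbol. Genes passing filterByExpr by line (minimum count 10) numbered 13599. All 15 libraries were fitted with line as the sole factor by the quasi-likelihood test of edgeR 4.0.16 in R 4.3.3 (TMM scaling), p-values were Benjamini-Hochberg adjusted over the 13599 genes, and 10 comparisons were drawn. CPM and RPKM were computed here, RPKM with the union of exons in the deposited annotation. RasV12 and the other groups come from sample labels. The edgeR step was checked on simulated counts with known changes in RasV12 over T53D4. Those counts had no deviation shared by libraries of the same replicate number.

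The members, gene lists and tests were chosen with earlier results of these data known. Named genes are all members in every comparison, up to 3 called genes of each list with the largest log2 fold change, and the 3 genes most like each member whose highest line averages 5 CPM or more. For the other lists only the comparisons against T53D4 are described, and 1 result that this rule names is not reported here. Same-numbered libraries deviated together in 28 of 30 pairs of lines and numbers (r over 0.1, median 0.34). The numbers were taken to pair the samples, except in RasV12 against AKTmyr and against ARPE19 (r = 0.027 and 0.01 in replicate 3). The main fit leaves this pairing out, as line is its sole factor, so its p-values are unpaired. Only the replicate block takes the numbers into account, and it was run as an alternative for every comparison, those exceptions included. No 2 libraries were identical, and replicates differed beyond counting noise (chi-square over degrees of freedom 34.6 to 151). Alternatives were DESeq2 1.42.0, its size factors, no filter on low counts, the replicate block, construct rows kept, only the lines compared, and each library left out.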

Additional observations from a re-analysis of the deposited data

How the results depend on the processing

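Of the members' log2 fold changes under the alternatives named in the processing description, 468 kept their side of the threshold. Another 11 lost a call and 1 gained one. The 468 include differences that did not pass and changed sign. HMGA1 in T53D4 over ARPE19, for example, ran from -0.26 to 0.1 with a library left out. No called direction reversed. The replicate block changed no member call: the counts of members called stayed at 3, 2 and 3 for RasV12, MekDD and AKTmyr against T53D4. The count of members called in MekDD over ARPE19 was 1 to 2 with a library left out. Leaving out a whole replicate number of every line, chosen after seeing the data, leaves 2 libraries per line. It gave 0 to 3 members called for MekDD over T53D4, 0 to 3 for AKTmyr over T53D4, 0 to 1 for RasV12 over MekDD, 0 to 3 for MekDD over ARPE19 and 0 to 2 for AKTmyr over ARPE19. The counts of 0 came without replicate 2, and for MekDD over ARPE19 also without replicate 1. In those fits HMGA1 in RasV12 over T53D4 had log2 1.58 with an edgeR adjusted p = 0.143 without replicate 2. HMGA2 and IGF2BP3 in RasV12 over T53D4 passed in all 3 of them, with log2 3.16 to 3.41 and 1.34 to 1.88. Over all genes, DESeq2 called 189 genes in T53D4 against ARPE19 and 1116 in MekDD against T53D4, where edgeR called 21 and 694. With only the lines compared, edgeR called 2 genes in T53D4 against ARPE19 and 1449 in AKTmyr against T53D4. The cause was not tested. Depth limits IGF2BP1, with 10 to 26 reads per line.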
